A study of Mus musculus with 72 samples.

Results

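The Sprouty and SPRED families hold the classical feedback inhibitors of receptor tyrosine kinase and RAS signalling, and their transcripts were followed here through 6 mouse melanoma lines given a GRPR ligand, its antagonist, or both. The genes were chosen by name: Spry1, Spry2 and Spry4 of the Sprouty family and Spred1, Spred2 and Spred3 of the SPRED family, which makes 6 genes of the 50600 in the count table. All 6 passed the filter on low counts in every line. There were 72 RNA-seq libraries, 3 for each of 4 treatments in each of 6 lines.

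All 6 lines came from melanomas of mice that carry Tyr::NRASQ61K, an NRAS transgene with the Q61K change driven by the tyrosinase promoter, so the controls carry active NRAS too. Lines 1057 and 1064 are female, lack Cdkn2a and carry Tyr::CreA, a recombinase under the tyrosinase promoter, with Cdh1 written as Cdh1dF/dF, and both express Grpr of their own. The 1014 line is female and carries the NRAS transgene as the only germline change in its label. The 1181 line is male, Cdkn2a-/-, has no Cre in its label and is written Cdh1dF/dF. The paper nevertheless counts 1181, like 1014, among the cells that keep E-cadherin, the product of Cdh1, and 1057 among those that lost it. Lines 1014 and 1181 were used with a plasmid for Grpr and tGFP (1014-Grpr and 1181-Grpr) or tGFP alone (1014-Ctrl and 1181-Ctrl), in both cases under the CMV promoter. The added receptor is thus transcribed from a viral promoter and not from the gene's own. Cells were kept for 18 h in 0.5% serum and were then treated during 4 h, with GRP at 10 nM, with RC-3095 (RC), an antagonist of its receptor, at 1 µM, with the pair together (GRP+RC), or with 0.1% DMSO alone (mock). GRP, the gastrin-releasing peptide, activates GRPR, a receptor coupled to Gq proteins. In bulk RNA, a change in the share of cells that express a gene and a change in RNA per cell cannot be told apart. The methods of the study describe biological triplicates for its cell culture experiments in general, but the labels do not tie the 3 libraries of a group to separate cultures, so p-values may measure only the technical spread between these libraries.

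Sprouty proteins are made after growth factor signals reach ERK, and then act back on the pathway between the receptor and RAF, through partners such as GRB2 and CBL. SPRED proteins share the cysteine-rich Sprouty domain and add an EVH1 domain, through which SPRED1 brings neurofibromin, the RAS GTPase-activating protein encoded by Nf1, to the plasma membrane. In melanocytes the RAS-ERK pathway controls growth and pigmentation, and loss of SPRED1 is known in human melanoma.

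In the GENCODE M21 annotation of GRCm38 Spry1 (ENSMUSG00000037211) lies on the plus strand of chromosome 3 from 37639947 to 37644598. Spry2 (ENSMUSG00000022114) lies on the minus strand of chromosome 14 from 105891947 to 105896819. Spred1 (ENSMUSG00000027351) occupies chromosome 2 from 117121374 to 117182279 on the plus strand, Spred2 (ENSMUSG00000045671) chromosome 11 from 19924375 to 20024026 on the plus strand, and Spred3 (ENSMUSG00000037239) chromosome 7 from 29158829 to 29170411 on the minus strand. Of the exon bases of Spry1, 24.4% overlap Gm42922 on the other strand, and of those of Spred3, 3.25% overlap Ggn. Gm42922 had 1 to 33 counts per library, a median of 1.1% of the Spry1 count. Ggn had 34 to 153 counts, a median of 8.49% of the Spred3 count. Whether counting used the strand is not given in the sources used here, so Spry1 and Spred3 carry that uncertainty. The other 4 genes share no exon bases with another annotated gene.

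The RefSeq promoter table (GRCm38.p6) held 5 of the 6 genes. The promoters of Spry2 and Spry1 are shown because these 2 genes moved in opposite directions after GRP in the same libraries, as described further on. Each run is the 250 bases before the transcription start, written along the gene, and capitals mark a searched motif. The Spry2 run is the minus strand of chr14:105896820-105897069 and the Spry1 run the plus strand of chr3:37639697-37639946.
Spry2: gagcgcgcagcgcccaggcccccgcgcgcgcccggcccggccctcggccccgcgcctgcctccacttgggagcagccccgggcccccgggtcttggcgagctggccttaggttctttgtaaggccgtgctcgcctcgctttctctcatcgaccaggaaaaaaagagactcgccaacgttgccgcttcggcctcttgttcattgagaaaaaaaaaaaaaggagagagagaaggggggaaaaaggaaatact
Spry1: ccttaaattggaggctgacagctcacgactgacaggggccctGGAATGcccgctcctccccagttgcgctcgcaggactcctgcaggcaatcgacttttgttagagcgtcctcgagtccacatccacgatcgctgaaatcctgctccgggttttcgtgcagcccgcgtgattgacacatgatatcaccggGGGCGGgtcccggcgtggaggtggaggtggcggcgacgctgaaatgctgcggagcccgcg

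Motifs were searched on both strands in windows of 300 bases, the 250 before and 50 after the start. The starts in the promoter table met the gene starts given above for Spry1 and Spry2, but not for Spred1, Spred2 and Spred3. The Spred3 window, chromosome 7 from 29168598 to 29168897, lies inside the gene as annotated. They were the cAMP response element TGACGTCA and its short form TGACG, which overlap, the AP-1 letters TGANTCA, the ETS letters CGGAAG, the TEAD letters GGAATG, the SP1 letters GGGCGG and the CArG box. None of these occurred in the Spry2 window, which says only that these letters are not in it. The Spry1 window held 1 GGAATG, which 14.7% of all 32851 promoters in the table hold, and 1 GGGCGG, held by 35.7%. CGGAAG occurred in 16.9% of all promoters and was in the Spred1 window 2 times and in the Spred2 window 1 time. The short form TGACG occurred in 20.8% of promoters and among these genes in Spred2. The full response element was in 1.79%, the AP-1 letters in 7.81% and the CArG box in 1.63% of promoters and in none of the 5 windows. SP1 letters were in 4 of the 5 windows.

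Library totals ran from 19512882 to 46862053 counted reads, and the 6 genes were counted far above the floor of 3 counts, which is at most 0.16 CPM. Sox10 was between 729.5 and 1289 CPM and Mitf between 338 and 1919 CPM in every library. The other melanocyte markers ran from 163 to 24005 CPM for Dct, 180 to 5873 for Pmel, 61.2 to 2832 for Mlana and 855 to 2974 for Tyr. Tyrp1 passed 1 CPM in 70 libraries only and had a mean of 1.97 CPM in 1181-Ctrl. The leukocyte, T cell and epithelial markers Cd3e, Ptprc, Epcam, Krt5 and Krt14 stayed under 1 CPM in every library. Of the 11 markers of other cell types, 7 stayed under 1 CPM in every library, while Cd68, Pdgfra, Col1a1 and Cdh5 passed 1 CPM in 24 to 72 libraries. Grpr was between 472 and 1284 CPM in 1064, 187 and 275 CPM in 1057, 107 and 620.2 CPM in 1014-Grpr, and 8.49 and 79.9 CPM in 1181-Grpr apart from 1 library at 0. The line 1181-Grpr had the lowest receptor transcript of the lines labelled positive. These ranges span treatments. In 1014-Grpr Grpr was 107 to 141 CPM in mock and 399 to 620.2 CPM in GRP libraries, and in 1181-Grpr 8.49 to 17.7 and 19.1 to 79.9 CPM. It was 786 to 1284 and 472 to 519 CPM in 1064, and 273 to 275 and 197 to 209.9 CPM in 1057. A test of these differences is not given here. The labels of 2 libraries were contradicted: the library labelled 1014-Ctrl mock, replicate 2, held 48.1 CPM of Grpr and 64.2 CPM of the Y-linked Ddx3y, and the library labelled 1181-Grpr GRP+RC, replicate 2, had 0 CPM of both, although 1181 is a male line. In each, Grpr and Ddx3y were near the levels of the line on the other's label. Whether the 2 libraries were exchanged was not tested. Both are kept under their labels here. Results that rest on them are given without them as well, apart from effects within lines in a single fit of all 72 libraries.

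Resting levels in the mock libraries can be compared between genes only per transcript length, as TPM. Spry4 was the highest of the 6 in 1057, at 866 ± 9.94 TPM (SD, n = 3), and also in 1064, 1181-Grpr and 1181-Ctrl, while Spred3, whose product lacks a functional KIT-binding domain, was the lowest in 1057, 1064, 1014-Grpr and 1181-Grpr. In 1014-Grpr the order was different: Spred1 had 92.4 ± 1.95, Spry2 82.2 ± 11.1, Spred2 56.4 ± 0.845 and Spry4 only 46.8 ± 4.67 TPM. The 6 genes summed to 1293 ± 11.2 TPM in 1057 against 308 ± 13.3 in 1014-Grpr, and Spry4 alone differed by more than all other members together.

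**Figure D1:**
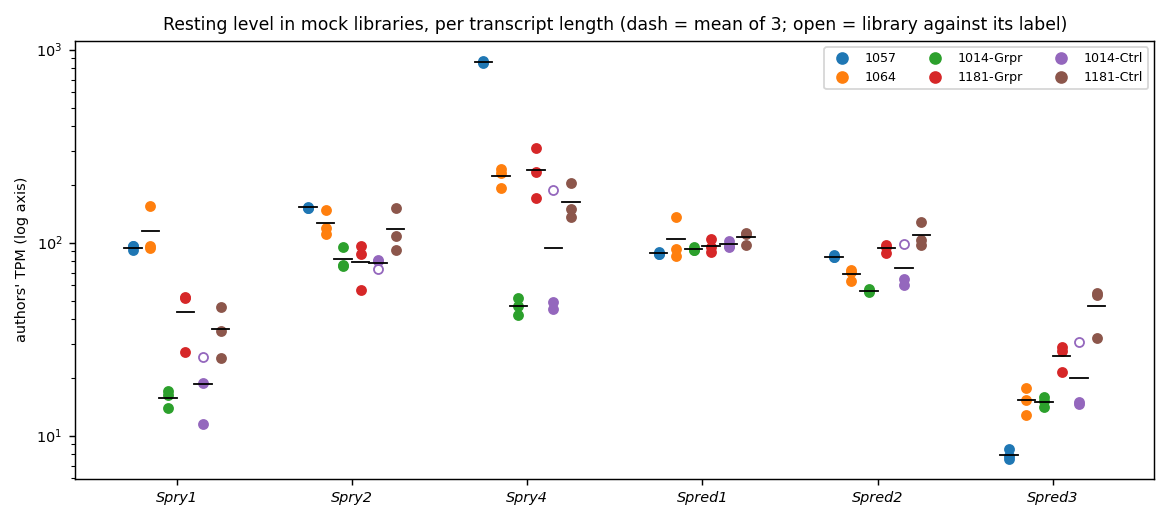
Resting level of the 6 genes in mock libraries of the 6 lines, as the authors' TPM on a log axis, with a dash for the mean of 3 and an open point for the library labelled 1014-Ctrl replicate 2. The mean of Spry4 in 1057 is 866 TPM and in 1014-Grpr 46.8 TPM, while the means of Spred1 lie between 88.1 and 107 TPM.

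Across lines each gene had its own range, here in CPM scaled over all 72 libraries. Spry4 spread widest, from 1322 ± 25.7 in 1057 to 58.6 ± 5.06 in 1014-Grpr, a 22.6-fold difference of means. The 3 libraries of 1057 lay above all others. Those of 1064, 1181-Grpr and 1181-Ctrl overlapped as neighbours in that order, and 1014-Ctrl without the doubtful library had 59 ± 4.46 (n = 2), beside 1014-Grpr. Spry1 fell into 1064 (109 ± 33.1) and 1057 (91.3 ± 4.33), which overlapped, then the 1181 pair, then the 1014 pair, with 1014-Grpr at 12.5 ± 1.44. Spry2 ran only from 106 ± 3.63 in 1057 to 44.4 ± 10.8 in 1181-Grpr, and every neighbour in its order overlapped. Spred1 differed least, from 231 ± 47.1 in 1064 to 171 ± 5.3 in 1014-Grpr, again with every neighbour overlapping. Spred2 was highest in 1181-Ctrl at 131 ± 16.4 and lowest in 1014-Grpr at 71.1 ± 2.1. Spred3, unlike Spry4, was lowest in 1057, at 16.5 ± 0.885, and highest in 1181-Ctrl, at 75.7 ± 22.4. All 6 genes differed among the 6 mock groups by edgeR's quasi-likelihood test, with adjusted p from 5.03e-15 for Spry4 to 0.00501 for Spred1, but so did 88.9% of all genes tested. Without replicate 1 the difference for Spred1 had an adjusted p of 0.0731.

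The ligand raised Spry2 in 3 of the 4 lines that express the receptor. Its protein binds the ubiquitin ligase CBL and inhibits FGF signalling. In 1057 the mock libraries held 109.6, 104 and 103 CPM and the GRP libraries 216, 213 and 221 CPM. In 1064 mock cells had 76.5, 75.2 and 107 CPM and GRP cells 275, 249 and 199 CPM. In 1014-Grpr the values went from 43.5, 43.6 and 52.9 CPM to 145, 211 and 204 CPM. In each of these 3 lines all GRP libraries lay above all mock libraries. The log2 fold change was 1.06 ± 0.03 (SE) in 1057, 1.49 ± 0.19 in 1064 and 2.02 ± 0.17 in 1014-Grpr, or 2.09-fold, 2.8-fold and 4.05-fold, with adjusted p of 3.51e-15, 0.00413 and 7.09e-06 by edgeR's quasi-likelihood test. In 1064 the rise kept its size without replicate 1 or without replicate 2, at 1.31 and 1.39, but no longer passed the test, with adjusted p of 0.121 and 0.172.

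These calls stand against a wide response of the transcriptome. GRP raised 25.7% and lowered 26.9% of the 14195 genes tested in 1057, and 5 of the 6 genes passed the test there, 3 higher and 2 lower. It raised 3.62% and lowered 2.76% of 13794 genes in 1064 and raised 16.3% and lowered 12.7% of 13730 genes in 1014-Grpr, where 1 and 3 of the 6 rose and none fell. A rise as large as that of Spry2 was less common: 4.59% of genes tested rose further in 1057, 1.54% in 1064 and 0.947% in 1014-Grpr. In 1064 and 1014-Grpr the replicate numbers mark libraries that deviated together, and with the number as a block GRP raised 20.5% and lowered 23.0% of genes in 1064 and raised 27.3% in 1014-Grpr.

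**Figure D2:**
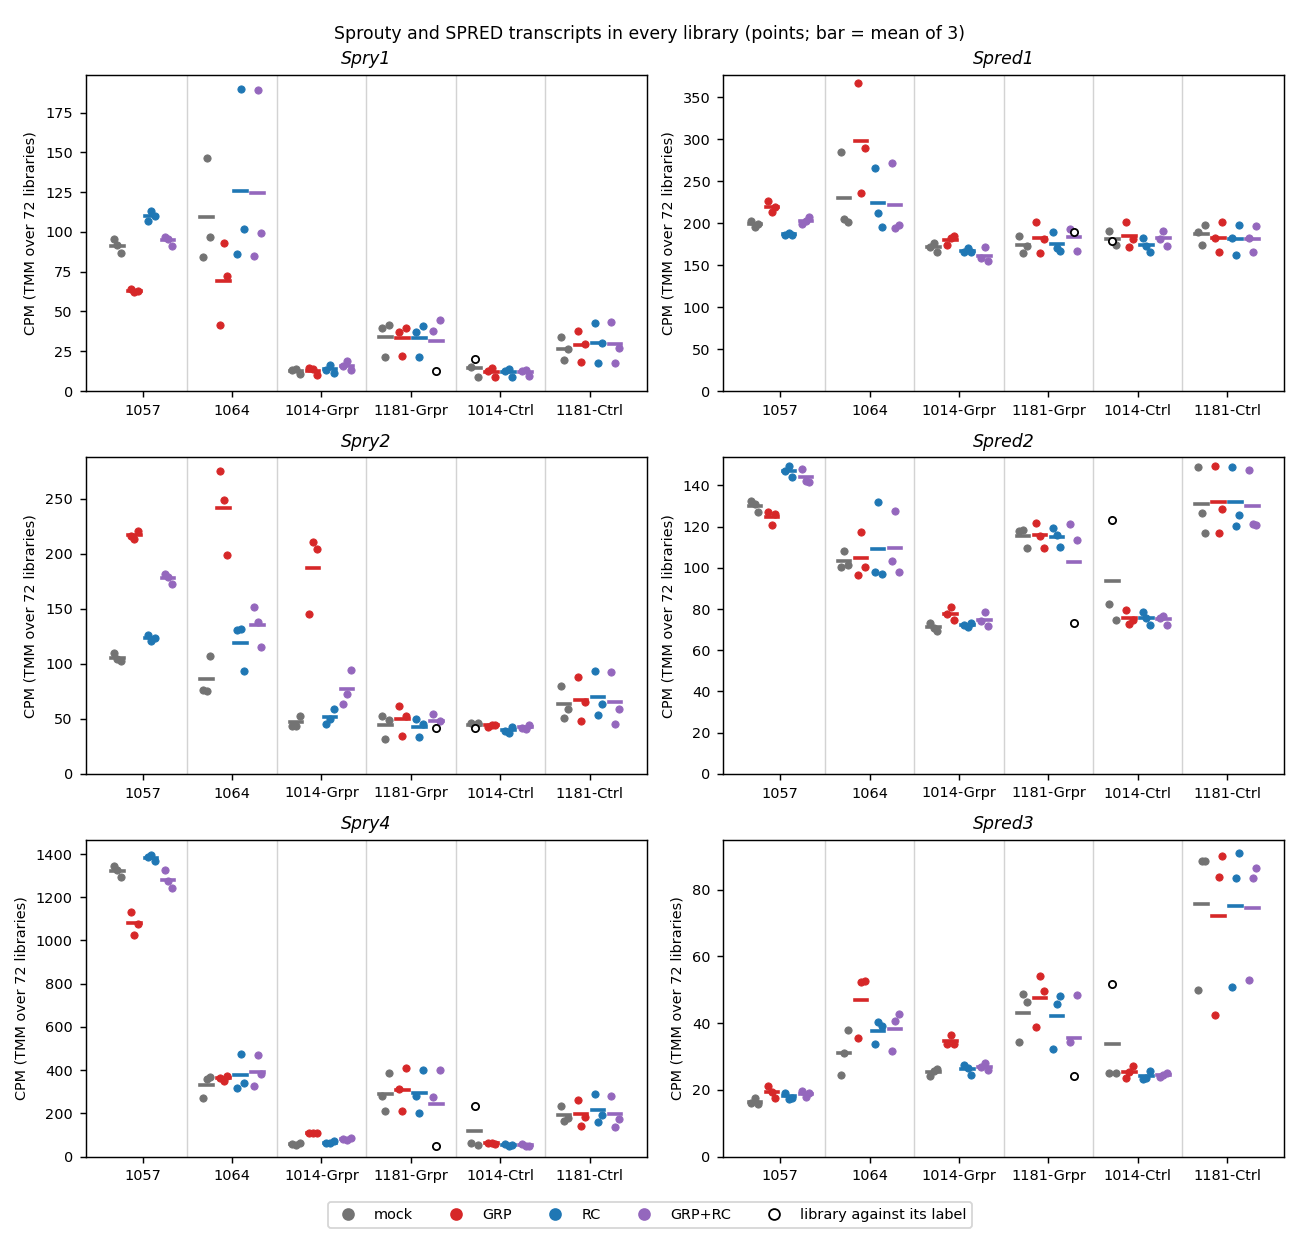
CPM of the 6 genes (TMM scaling over 72 libraries, axes from 0) in every library, by line and treatment, with a bar for the mean of 3 and open points for the 2 libraries that go against their labels. GRP libraries of Spry2 stand above mock libraries in 1057, 1064 and 1014-Grpr, and those of Spry1 stand below them in 1057.

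Spry1 fell in 1057 and, with the replicate number as a block, in 1064, the 2 lines that express Grpr of their own. Its protein restrains RET signalling in kidney development. In 1057 it had 95.3, 91.8 and 86.7 CPM in mock and 64.2, 62.2 and 63 CPM in GRP libraries, with no overlap, and fell by 0.51 on the log2 scale (SE 0.037, adjusted p = 1.57e-09). In 1064 the values were 83.9, 147 and 96.7 CPM for mock and 41.4, 92.9 and 72.3 CPM for GRP. The groups overlapped, yet each GRP library lay below the mock library of the same number. The log2 fold change of -0.66 ± 0.41 missed the threshold without the block (adjusted p = 0.394) and passed with it (-0.68 ± 0.12, adjusted p = 0.00109). In 1014-Grpr Spry1 was low, at 13.1, 13.5 and 10.9 CPM in mock and 14.6, 13.9 and 9.81 CPM in GRP libraries, and the log2 fold change was 0.03 ± 0.18 (adjusted p = 0.915).

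Spry4 moved in opposite directions in 1057 and 1014-Grpr. The gene (ENSMUSG00000024427) lies on the minus strand of chromosome 18 from 38586247 to 38601415 (GRCm38), and its protein inhibits RAS activation and binds the kinase TESK1. In 1057 it stood at 1344, 1328 and 1294 CPM in mock and 1132, 1028 and 1078 CPM in GRP libraries and fell by 0.27 on the log2 scale (SE 0.034, adjusted p = 2.55e-06). In 1014-Grpr it rose from 59.6, 53.1 and 63 CPM to 112, 109.6 and 107 CPM, a log2 fold change of 0.92 ± 0.08 (adjusted p = 5.68e-06). Neither pair of groups overlapped, and after the rise every 1014-Grpr library was still below every library of 1057. In 1064 Spry4 had 270.2, 362 and 367 CPM in mock and 364, 349.8 and 373 CPM in GRP libraries (0.13 ± 0.18, adjusted p = 0.756). In a single fit of all 72 libraries, which gives all lines 1 estimate of spread, the GRP effects on Spry1 (adjusted p = 0.404), Spry4 (0.731), Spred1 (0.51) and Spred3 (0.647) in 1057 and on Spry4 (0.109) and Spred3 (0.249) in 1014-Grpr were no longer called. That fit holds the 2 libraries that go against their labels, and effects within lines were not fitted this way without them.

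The SPRED genes changed less. Spred3 had 24.2, 25.8 and 26.3 CPM in mock and 33.9, 36.6 and 33.7 CPM in GRP libraries of 1014-Grpr, which did not overlap (0.47 ± 0.07, adjusted p = 0.000415). In 1057 it went from 16.1, 17.5 and 15.8 CPM to 21.3, 19.3 and 17.6 CPM (0.26 ± 0.07, adjusted p = 0.005), a call that was lost without replicate 1 (adjusted p = 0.086). In 1064 it had 24.4, 31 and 38.1 CPM and 35.5, 52.3 and 52.7 CPM, a log2 fold change of 0.59 ± 0.20 that passed with the block only (adjusted p = 0.104 without it and 0.000323 with it). The 1064 groups overlapped, and each GRP library lay above the mock library of its number.

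Spred1, the partner of neurofibromin, had 202, 196 and 199 CPM in mock and 227, 213 and 219.6 CPM in GRP libraries of 1057 (0.17 ± 0.03, adjusted p = 0.000183). In 1064 it went from 285, 205 and 202 CPM to 367, 236 and 289.7 CPM (0.37 ± 0.21), with adjusted p = 0.353 without and 0.00165 with the block. Each GRP library of 1064 was above the mock library of its number. Spred2, which also inhibits ERK signalling, had a log2 fold change of -0.04 ± 0.03 in 1057 and 0.02 ± 0.14 in 1064. In 1014-Grpr its mock libraries had 73.4, 70.7 and 69.3 CPM and its GRP libraries 77.8, 80.8 and 74.5 CPM (0.14 ± 0.06, adjusted p = 0.0778, and 0.0081 with the block).

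**Figure D3:**
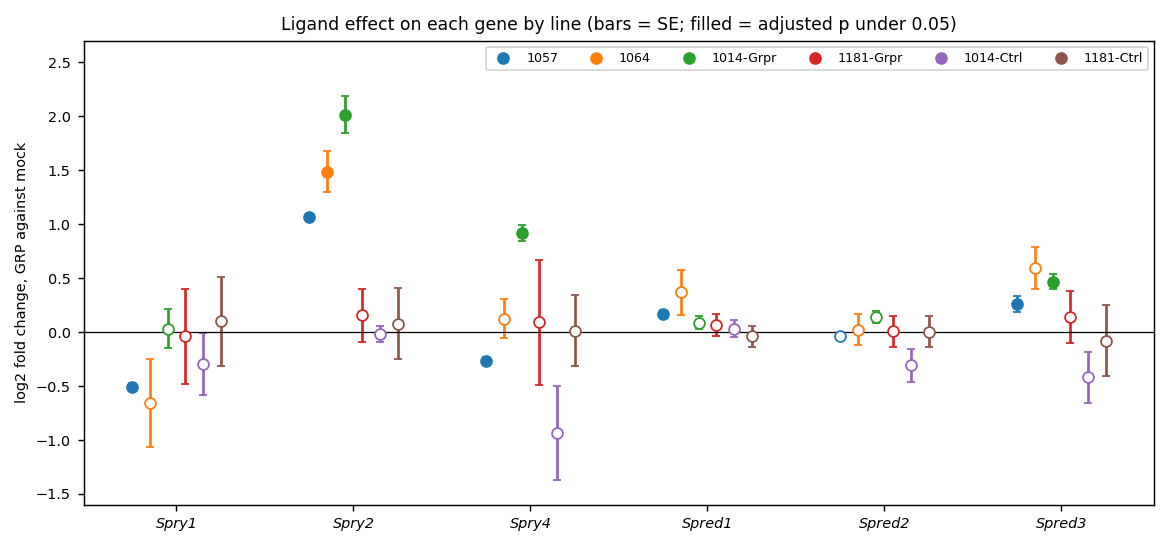
Log2 fold change of GRP against mock for each gene in each line, with bars of 1 SE and filled points for an adjusted p under 0.05 without the replicate block. Spry2 lies above 1 in 1057, 1064 and 1014-Grpr and near 0 in the other 3 lines, and the point of Spry4 in 1014-Ctrl rests on a library that goes against its label.

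In 1181-Grpr, the line with the least receptor transcript, none of the 6 genes passed the test, and neither did any of 14506 genes (0.0%, 45 at an unadjusted p under 0.05 and 0 with DESeq2). Spry2 had 52.2, 32.1 and 49 CPM in mock and 61.2, 34.1 and 52.9 CPM in GRP libraries. Each GRP library was above the mock library of its number, and the libraries of replicate 2 were low under both treatments. The log2 fold change was 0.16 ± 0.25. With the block and without the library that goes against its label it was 0.15 ± 0.04 (adjusted p = 0.138). The other 5 genes lay between -0.04 and 0.14. With the block and without that library Spred3 had 0.14 ± 0.04, Spry4 0.08 ± 0.03 and Spred1 0.07 ± 0.03. Their unadjusted p was 0.00258, 0.00928 and 0.0399 by edgeR's quasi-likelihood test, with 0.00178 for Spry2. Spry1 had -0.04 and Spred2 0.01, and none of the 6 passed after adjustment (adjusted p of 0.138 or more). Whether the level of Grpr has a part in the lack of calls was not tested.

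The control lines, which lack the receptor, also had no call among the 6 genes. GRP changed 0 of 13755 genes (0.0%) in 1014-Ctrl and 0 of 14188 (0.0%) in 1181-Ctrl, with 562 and 37 at an unadjusted p under 0.05 and 0 with DESeq2 in both. Spry2 had 46.4, 41.6 and 45.8 CPM in mock and 42.5, 44.7 and 44.8 CPM in GRP libraries of 1014-Ctrl, a log2 fold change of -0.02 ± 0.07. In 1181-Ctrl it had 79.6, 50.9 and 58.6 CPM and 87.6, 47.7 and 65.3 CPM (0.08 ± 0.33). With the replicate block, whose numbers pair the libraries of 1181-Ctrl, 0 of 14188 genes passed there too, with 513 at an unadjusted p under 0.05. For Spry4 in 1014-Ctrl 1 library set the value: mock had 62.2, 233 and 55.9 CPM and GRP 62.3, 65.2 and 57 CPM, and the log2 fold change of -0.93 ± 0.43 became 0.07 ± 0.05 with the block and without the library labelled mock replicate 2. Spred2 and Spred3 were also high in that library, at 123 and 51.6 CPM.

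The ligand effect differed between 1014-Grpr and 1014-Ctrl for Spry2, Spry4 and Spred3, higher in 1014-Grpr in each case, as for 9.08% of 14204 genes. The differences in log2 fold change were 2.03 ± 0.20 (adjusted p = 1.18e-06), 1.84 ± 0.46 (adjusted p = 0.0108) and 0.88 ± 0.25 (adjusted p = 0.0244). Without the doubtful library and with the block, where 21.4% of genes were higher, they were 2.06 ± 0.11, 0.86 ± 0.08 and 0.45 ± 0.08, with adjusted p of 4.41e-14, 6.37e-10 and 4.34e-05, and Spred2 passed as well (0.20 ± 0.06, adjusted p = 0.009). The size of the difference for Spry4 and Spred3 thus depended on that library and that for Spry2 did not. With all libraries, leaving out replicate 1 or 3 lost the calls of Spry4 (adjusted p = 0.0779 and 0.056) and Spred3 (0.124 and 0.0749), and leaving out replicate 2 lost that of Spred3 (0.0702). Between 1181-Grpr and 1181-Ctrl the effect on Spry2 differed by 0.07 ± 0.42 (adjusted p = 1), and 0 of 15041 genes passed (0.0%, 58 at an unadjusted p under 0.05 and 0 with DESeq2).

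Comparisons of the ligand effect between lines were added after the values were seen. Against 1014-Grpr, the effect in 1057 was lower for Spry4 (-1.20 ± 0.09, adjusted p = 2.02e-09), for Spry2 (-0.97 ± 0.17, adjusted p = 0.00036), for Spry1 (-0.54 ± 0.18, adjusted p = 0.0405) and for Spred2 (-0.19 ± 0.06, adjusted p = 0.0369), as for 9.48% of 15538 genes. The calls of Spry1 and Spred2 were lost without replicate 1 or 2, that of Spred2 also without replicate 3, and that of Spry2 without replicate 2 (adjusted p = 0.0571), while that of Spry4 stood in each case. None of the 6 differed between 1057 and 1064 (1.3% of 15090 genes did), with 2 of the 6 at an unadjusted p under 0.05 and 0 called by DESeq2. With the replicate number as a block, which pairs the libraries in 1064 but not in 1057, the effect in 1057 was lower for Spry4 (-0.42 ± 0.12, adjusted p = 0.0254) and Spred3 (-0.33 ± 0.11, adjusted p = 0.0431), as for 7.26% of genes, and 2509 genes were called in place of 196. Between 1064 and 1014-Grpr 0 of the 6 passed without the block (0.247% of 14977 genes, 1 of the 6 at an unadjusted p under 0.05, 0 with DESeq2). With it the effect in 1064 was lower for Spry4 (-0.74 ± 0.13, adjusted p = 0.00101) and Spry1 (-0.68 ± 0.15, adjusted p = 0.00645) and higher for Spred1 (0.32 ± 0.08, adjusted p = 0.0127), where 7.9% of genes were lower and 6.34% higher.

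Averaged over the 4 receptor-expressing lines, GRP raised Spry2 by 1.17 ± 0.11 on the log2 scale (adjusted p = 1.84e-12), Spred3 by 0.35 ± 0.12 (adjusted p = 0.0211) and Spred1 by 0.16 ± 0.06 (adjusted p = 0.0274), as it raised 13.3% of 16596 genes. Of all genes, 2.05% rose further than Spry2. The mean for Spry1 was -0.30 ± 0.18 (adjusted p = 0.233). With the replicate block, whose numbers pair the libraries in some of the lines only, it was -0.31 ± 0.06 (adjusted p = 4.93e-05, where 23.1% of genes were lower). With the block and without the 2 doubtful libraries Spry1 had -0.31 ± 0.04 (adjusted p = 4.01e-08, with 27.9% of genes lower) and Spry4 had 0.21 ± 0.04 (adjusted p = 4.38e-06, with 23.9% higher). Without replicate 2 or 3 the calls of Spred1 (adjusted p = 0.0545 and 0.29) and Spred3 (0.141 and 0.0934) were lost. Over the 2 control lines the mean for Spry2 was 0.03 ± 0.15 and no gene of the 6 passed (1.09% of all genes did, 0 of the 6 at an unadjusted p under 0.05 and 0 with DESeq2). Of the 181 genes behind that share 180 were lower, and without the 2 doubtful libraries edgeR called 0 of 16901 genes (0.0%), with 165 at an unadjusted p under 0.05, while DESeq2 with all libraries called 269.

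The antagonist was added to ask whether the response passes through GRPR. With GRP and RC together Spry2 stood between its mock and GRP levels in 1057, 1064 and 1014-Grpr: the libraries held 181, 179 and 173 CPM in 1057, 151, 138 and 116 CPM in 1064 and 63.7, 72.4 and 94 CPM in 1014-Grpr. In all 3 lines these lay above every mock library and below every GRP library. Against GRP alone the log2 fold change was -0.31 ± 0.03 in 1057 and -1.30 ± 0.17 in 1014-Grpr, with adjusted p of 5.12e-07 and 0.000426. In 1064 it was -0.85 ± 0.19 (adjusted p = 0.144), and -0.85 ± 0.16 with the block (adjusted p = 0.00673). Against mock Spry2 was still higher in 1057 (0.76 ± 0.03, adjusted p = 1.07e-12). In 1014-Grpr that difference passed with the block only (0.70 ± 0.08, adjusted p = 7.06e-06, and 0.0802 without it), and in 1064 it was 0.64 ± 0.19 (adjusted p = 1).

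Spry1 was higher with RC added to GRP than with GRP alone. With RC added to GRP it had 97, 95.6 and 91.4 CPM in 1057, a log2 fold change of 0.56 ± 0.04 against GRP (adjusted p = 3.57e-09) that placed it beside its mock level (0.06 ± 0.04 against mock, adjusted p = 0.213). Spry1 was lower in each of these libraries than in any given RC alone (107 to 113 CPM), a difference that was not tested. In 1064 it had 84.9, 189 and 99.2 CPM, 0.82 ± 0.12 against GRP with the block (adjusted p = 0.00252, and 0.544 without it). In 1014-Grpr it had 15.7, 18.6 and 13.5 CPM and was higher with the block both against GRP (0.32 ± 0.08, adjusted p = 0.00396) and against mock (0.35 ± 0.08, adjusted p = 0.00606).

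With RC added to GRP, Spry4 lay nearer its mock level than with GRP alone in 1057 and 1014-Grpr. In 1057, where GRP lowered it, RC with GRP gave 1325, 1274 and 1243 CPM (0.23 ± 0.03 against GRP, adjusted p = 6.38e-05). In 1014-Grpr, where GRP raised it, RC with GRP gave 80.1, 77.1 and 84.8 CPM (-0.46 ± 0.08 against GRP, adjusted p = 0.00206). It remained above mock there (0.46 ± 0.08, adjusted p = 0.0181), where leaving out any 1 replicate number lost the call (adjusted p from 0.0946 to 0.282) and the block kept it (adjusted p = 5.4e-06). Spred3 fell back in 1014-Grpr (-0.38 ± 0.07 against GRP, adjusted p = 0.0038) and stood at -0.06 ± 0.07 in 1057 (adjusted p = 0.611). In 1014-Grpr the fall of Spry4 lost its call without replicate 1 (adjusted p = 0.0873) and that of Spred3 without replicate 1 or 2 (0.0565 and 0.0749). With the block Spred3 also fell in 1064 (-0.29 ± 0.08, adjusted p = 0.0246), as did Spred1 in 1064 (-0.44 ± 0.07) and 1014-Grpr (-0.18 ± 0.04), with adjusted p of 0.00315 and 0.00101.

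In 1057, 5 of the 6 genes differed between GRP+RC and GRP, Spry1, Spry4 and Spred2 higher and Spry2 and Spred1 lower, where 11.0% of all genes were higher and 13.7% lower. The call of Spred1 there was lost without replicate 1 (adjusted p = 0.0985). In 1014-Grpr 3 of the 6 were lower, as were 8.06% of genes, and with the block 1 was higher and 4 lower, as were 17.0% and 21.7% of genes. In 1064 none passed (0.029% of genes, 1 of the 6 at an unadjusted p under 0.05, 1 with DESeq2), and with the block 1 was higher and 3 lower, as were 10.3% and 10.9%. Against mock, GRP+RC left Spry2, Spred2 and Spred3 higher in 1057 (21.3% of genes) and Spry4 in 1014-Grpr (0.765%, and with the block 3 of the 6 and 10.1% of genes). The call of Spred3 in 1057 was lost without replicate 1 or 3 (adjusted p = 0.144 and 0.142). In 1057 the mean of Spry2 was 124 CPM with RC alone and 178 CPM with GRP+RC, and that of Spred2 was 147 and 144 CPM. GRP+RC was not tested against RC alone. The single fit of 72 libraries kept none of the 5 calls against GRP in 1057 and only that of Spry2 in 1014-Grpr. The comparisons with GRP and with mock share libraries and are not independent.

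**Figure D4:**
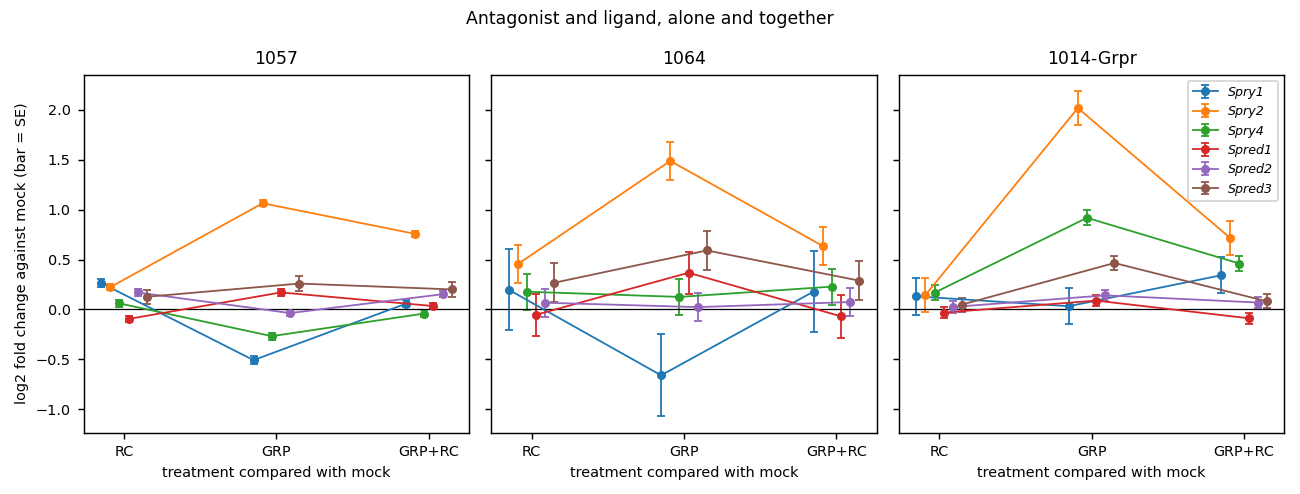
Log2 fold change against mock (bars of 1 SE, no replicate block) for RC alone, GRP alone and both, in the 3 lines where GRP changed Spry2; lines join the values of 1 gene. Spry2 peaks with GRP in each panel and lies lower with RC added, and Spry1 has its lowest point with GRP in 1057 and 1064.

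RC alone changed these genes in 1057 only by small amounts. Spry1 rose from 95.3, 91.8 and 86.7 CPM to 107, 113 and 110.1 CPM (0.27 ± 0.04, adjusted p = 2.73e-05), and Spry2 (0.22 ± 0.03, adjusted p = 3.89e-05) and Spred2 (0.17 ± 0.03, adjusted p = 0.000582) rose as well, while Spred1 fell (-0.09 ± 0.03, adjusted p = 0.0384). RC alone raised 13.0% and lowered 11.3% of all genes in that line. The call of Spred1 was lost whichever replicate number was left out (adjusted p from 0.0812 to 0.237). In 1064 and 1014-Grpr no gene of the whole table passed without the block for RC against mock (0.0%, 129 and 161 at an unadjusted p under 0.05 and 0 with DESeq2). Nor did any for GRP+RC against mock in 1064 (0.0%, 352 and 0). With the block, RC against mock called 0 genes in 1064 and 5 in 1014-Grpr, with 1245 and 735 at an unadjusted p under 0.05. The remaining 9 contrasts in 1181-Grpr, 1014-Ctrl and 1181-Ctrl that include RC called 0 genes (0.0%, from 33 to 694 at an unadjusted p under 0.05 and 0 with DESeq2). With the block and without the doubtful library, Spry4 in 1014-Ctrl was lower with GRP+RC than with GRP (-0.23 ± 0.04, adjusted p = 0.00783), as were 0.158% of genes, in a line without the receptor.

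The proportions of the Sprouty transcripts also differed after GRP. Of the summed Sprouty TPM, Spry2 made up 13.7% ± 0.201 (SD, n = 3) in mock and 28.8% ± 0.838 in GRP libraries of 1057, 27.5% ± 5 and 52.8% ± 5.6 in 1064, and 56.6% ± 2.43 and 75.6% ± 4.57 in 1014-Grpr. Spry4 was still the largest share in 1057 after GRP, at 65.2% ± 0.935, and Spry1 had 24.6% ± 5.29 in mock and 10.9% ± 4.06 in GRP libraries of 1064. The summed Sprouty TPM was 1113 ± 10.2 in mock and 1050.1 ± 51.4 in GRP libraries of 1057. In 1014-Grpr it went from 145 ± 13.7 to 405 ± 55.2, while the SPRED sum was 164 ± 1.52 and 168 ± 3.51. These shares are descriptions and were not tested.

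Other transcripts of the pathway were followed by lists. Their counts stand against the shares of all genes that GRP raised and lowered. These were 25.7% and 26.9% in 1057, 3.62% and 2.76% in 1064, and 16.3% and 12.7% in 1014-Grpr. Of 14 transcripts known to be induced by ERK, GRP raised 7 and lowered 5 in 1057, raised 4 and lowered 0 in 1064, and raised 9 and lowered 2 in 1014-Grpr, with medians of 0.0853, 0.459 and 0.893 on the log2 scale against -0.0112, -0.0249 and -0.0164 over all genes. Fosl1, an AP-1 subunit, rose by 3.11 ± 0.17 in 1057 (adjusted p = 2.31e-11), 2.66 ± 0.67 in 1064 (adjusted p = 0.0432) and 4.48 ± 0.22 in 1014-Grpr (adjusted p = 2.77e-07). Its mock means in these lines were low, at 0.462, 1.32 and 1.18 CPM. Fos rose by 2.57 ± 0.06, 1.88 ± 0.48 and 1.99 ± 0.22 in the same lines, and Dusp5, an ERK phosphatase, by 1.69 ± 0.04, 1.40 ± 0.12 and 1.89 ± 0.15 (adjusted p of 0.0456 or less for each). Epha2 was lower in 1057 by 0.09 and higher in 1014-Grpr by 2.18 ± 0.29 (adjusted p = 0.0348 and 0.000167). Its mock mean was 134 CPM in 1057 and only 0.953 CPM in 1014-Grpr.

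Among 13 other negative regulators of receptor tyrosine kinases and RAS, GRP raised 6 and lowered 3 in 1057, raised 6 and lowered 0 of 10 in 1014-Grpr, and lowered 1 of 11 in 1064, with medians of 0.274, 0.458 and 0.238. Dusp2, a nuclear phosphatase of ERK, rose by 1.40 ± 0.10 in 1057 and 2.07 ± 0.38 in 1014-Grpr (adjusted p = 6.06e-10 and 0.00166), from low levels of 2.69 and 0.574 CPM. Errfi1, the inhibitor of the EGF receptor, rose by 0.77 ± 0.04 in 1057 and 0.38 ± 0.10 in 1014-Grpr (adjusted p = 9.86e-12 and 0.00983). In 1181-Grpr Errfi1 had 0.64 ± 0.21 and did not pass. Rasal2, a RAS GTPase-activating protein, rose by 0.39 ± 0.05 in 1057 and 0.55 ± 0.12 in 1014-Grpr, and the repressor Cic by 0.46 ± 0.08 in 1014-Grpr (adjusted p of 0.0053 or less for each).

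Of 11 partners of Sprouty and SPRED proteins, 4 rose and 2 fell of 10 tested in 1057, 3 rose and 0 fell in 1064, and 3 rose and 1 fell in 1014-Grpr, with medians of 0.0391, 0.243 and 0.0707. Siah2, a ubiquitin ligase that binds Sprouty2, rose in all 3 lines, by 0.62 ± 0.05, 0.56 ± 0.13 and 0.49 ± 0.14 (adjusted p of 0.0311 or less for each). Rasa1 rose by 0.66 ± 0.05 in 1057 and 0.87 ± 0.18 in 1064, Cblb by 0.43 ± 0.06 and 0.97 ± 0.17 in those lines, and Ppp2ca, a catalytic subunit of protein phosphatase 2A, by 0.39 ± 0.03 in 1057 and 0.49 ± 0.06 in 1014-Grpr (adjusted p of 0.0233 or less for each).

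Of the 18 genes of the RAS-ERK core 6 rose and 7 fell in 1057, where 25.7% of all genes rose and 26.9% fell. In 1064, where 3.62% rose and 2.76% fell, 1 of the 18 rose and 1 fell, and in 1014-Grpr, where 16.3% rose and 12.7% fell, 3 rose and 1 fell of 17 tested, with medians of 0.023, 0.0753 and 0.0321. Ksr1, a scaffold of RAF and MEK, fell by 0.58 in 1057, 1.84 in 1064 and 0.88 in 1014-Grpr (log2, adjusted p of 0.0268 or less for each). Braf rose by 0.35 ± 0.09 in 1064 and 0.24 ± 0.08 in 1014-Grpr, and Shc1 fell by 0.42 in 1057 (adjusted p of 0.0459 or less for each).

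Of 14 receptor tyrosine kinases, of which 8 or 9 were tested, 1 rose and 4 fell in 1057, 0 rose and 2 fell in 1064, and 1 rose and 1 fell in 1014-Grpr, with medians of -0.115, -0.197 and -0.0507. Erbb3 fell by 1.67 on the log2 scale in 1057, fell by 1.77 in 1064 and fell by 0.50 in 1014-Grpr (adjusted p = 6.64e-16, 0.0113 and 0.0276), and Kit, the receptor for stem cell factor, fell by 0.53 in 1057 and 1.27 in 1064 (adjusted p = 1.84e-11 and 0.0169). No gene of any of these lists passed after GRP in 1181-Grpr, 1014-Ctrl or 1181-Ctrl by edgeR. With the block the ERK-induced list had 8 raised and 3 lowered genes in 1064 and 10 and 2 in 1014-Grpr, the other negative regulators 3 and 2 in 1064 and 8 and 0 in 1014-Grpr, the partners 8 and 1 in 1064 and 5 and 2 in 1014-Grpr, the core 7 and 4 in both lines, and the receptors 1 and 3 in both. The counts are read against the shares of all genes given above. With the block GRP also lowered 3616 of 13730 genes in 1014-Grpr.

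The pattern of each gene over the 72 libraries, after the mean of each line was taken out, was compared with that of 12514 genes as a description. Spry2 was most like Plk2, Fosb and Tnfaip8 (Pearson r of 0.908 for the first and 0.899 for the last), and without the 2 doubtful libraries Plk2 was still first. Spry1 was most like Il16, Disc1 and Dock1 (0.845, 0.837 and 0.806), but without those libraries Sppl2b, Ldlrad3 and Foxj1 came first (0.848, 0.83 and 0.822). Spred3 was most like Mapk8ip3, Prpf40b and Vamp2 (0.920, 0.888 and 0.883), of which Mapk8ip3 was still first without those libraries (0.889). Spred1 was most like Sfmbt1, Lrrfip1 and Lats2 (0.759, 0.758 and 0.757), and without those libraries Ptbp3, Phldb1 and Sfmbt1 (0.832, 0.826 and 0.814). For Spry4 the first 3 were Hlx, Hapln1 and Irf8 (0.903, 0.89 and 0.878) and for Spred2 Lyz2, Rnf44 and Irs2 (0.876, 0.866 and 0.846), but without the 2 libraries none of those of Spry4 was among its first 10 and Lyz2 alone remained for Spred2 (0.726). Between the 6 genes themselves, Spry4 and Spred2 had the highest r with all libraries (0.789, and 0.516 without the 2 libraries), Spry1 and Spred2 the highest without them (0.652), and Spry1 and Spry2 had an r of -0.02. The points share their lines, treatments and library depth.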

How the data were processed

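RNA-seq was made from 72 libraries of 6 mouse melanoma lines under 4 treatments, with 3 libraries per group. The authors prepared stranded TruSeq mRNA libraries, sequenced them paired-end on a NovaSeq, mapped reads with STAR to mm10 (GRCm38.p5, GENCODE M13) and deposited raw counts per gene. The authors also deposited TPM, which was used only to compare levels between genes. FastQC 0.11.5 is named in the submitters' processing notes. Whether counting used the strand is not given in the sources used here. Of 50600 genes, 99.6% had a symbol through the reference tables.

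Counts were fitted per line with edgeR 4.0.16 (filterByExpr, TMM scaling, glmQLFit and glmQLFTest, R 4.3.3), with calls made where the p adjusted by Benjamini-Hochberg over all genes tested was under 0.05. CPM was computed from counts with TMM factors over 72 libraries. The standard error of a log2 fold change was its size divided by the square root of F. Alternatives were DESeq2 1.42.0, its size factors, no filter on low counts, a fold threshold, the replicate number as a block, each replicate number left out, 1 fit of 72 libraries, and the fits without the 2 libraries that go against their labels. Library totals of 19512882 to 46862053 limit precision, and floors cover counting error only. No pair of 72 replicate pairs differed by as little as sampling noise (lowest chi-square per degree of freedom 2.436).

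Same-numbered libraries were taken as paired in a line where every correlation of their deviations from the group means was over 0.1. This held in 1064 (0.610 to 0.881), 1014-Grpr (0.381 to 0.588) and 1181-Ctrl (0.804 to 0.919). It did not hold in 1057 (-0.176 to 0.165), nor in 1014-Ctrl (lowest 0.0388) and 1181-Grpr (lowest -0.0198) unless the 2 libraries were left out (lowest 0.374 and 0.539).

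The 6 genes and all lists were chosen with earlier results of these data known. Of each list the text names at most 4 genes, those with the largest mean effect of GRP over the 4 receptor-expressing lines among genes that passed that test. A gene that this rule names is not reported here. Spry3 was not analysed here.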

Additional observations from a re-analysis of the deposited data

Results flagged for a closer look

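The effect of GRP differed between 1014-Grpr and 1014-Ctrl, by a test of the difference itself in edgeR, for Spry2 (2.03 on the log2 scale, adjusted p = 1.18e-06), Spry4 (1.84, adjusted p = 0.0108) and Spred3 (0.88, adjusted p = 0.0244). The values for Spry4 and Spred3 moved to 0.86 and 0.45 with the replicate block and without the library labelled 1014-Ctrl mock replicate 2.

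The effect of GRP also differed between 1057 and 1014-Grpr, by the same kind of test, for Spry4 (-1.20, adjusted p = 2.02e-09), Spry2 (-0.97, adjusted p = 0.00036), Spry1 (-0.54, adjusted p = 0.0405) and Spred2 (-0.19, adjusted p = 0.0369). These comparisons were chosen after the values were seen. Groups of 3 libraries are too small for a test of single outlying libraries.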

How the results depend on the processing

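Among the log2 fold changes under alternatives, 602 kept their direction and their side of the threshold, 57 lost and 17 gained the call, and 16 changed sign. Called members of the 6 are counted here; the cause of each change was not tested. With a fold threshold of 1 on the log2 scale added, the counts were 1 for GRP in 1057 and in 1014-Grpr, 1 for the mean over 4 lines and 1 for GRP+RC against GRP in 1014-Grpr, and 0 for RC, GRP+RC against GRP and GRP+RC against mock in 1057 and GRP+RC against mock in 1014-Grpr. In 1 fit of 72 libraries they were 1 for GRP and for GRP+RC against mock in 1057, 1 for GRP and for GRP+RC against GRP in 1014-Grpr, 2 for GRP and for GRP+RC against GRP in 1064, and 0 for RC and for GRP+RC against GRP in 1057 and GRP+RC against mock in 1014-Grpr. DESeq2 gave 2 for GRP in 1064, 1 for GRP+RC against GRP in 1064 and 2 for GRP+RC against mock in 1014-Grpr, where no filter on low counts also gave 2.

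With the replicate block the counts were 4 for GRP and 4 for GRP+RC against GRP in 1064, and 5 for GRP+RC against GRP and 3 for GRP+RC against mock in 1014-Grpr. In 1057, where the numbers do not pair the libraries, the block left the count for GRP at 5. With the block and without the 2 libraries they were 1 for GRP+RC against GRP in 1014-Ctrl and 5 for the mean over 4 lines. Leaving out a replicate number gave 0 to 1 for GRP in 1064, 1 to 3 for GRP+RC against GRP in 1014-Grpr, 0 for GRP+RC against mock in 1014-Grpr, 1 to 2 for the 1014 difference and 1 to 3 for the mean over 4 lines.

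The 16 that changed sign were GRP effects that did not pass the test. GRP+RC contrasts of 1181-Grpr are not among these counts, and without the 2 libraries signs changed there too, with no member past the test in either fit: GRP+RC against mock went from -0.26 to 0.22 for Spry4 and from -0.09 to 0.29 for Spry1, and GRP+RC against GRP from -0.35 to 0.13 for Spry4 and from -0.05 to 0.33 for Spry1. Over the fits that leave out a replicate number, the effects concerned ranged from -0.0199 to 0.0720 for Spred2 in 1064, from -0.0290 to 0.0986 for Spry1 in 1014-Grpr, from -0.0163 to 0.0293 for Spred2 in 1181-Grpr, from -0.0738 to 0.0278 for Spry2 in 1014-Ctrl, from -1.2562 to 0.0195 for Spry4 in 1014-Ctrl, from -0.0044 to 0.0751 for Spred1 in 1014-Ctrl, from -0.6446 to 0.0225 for Spred3 in 1014-Ctrl, from -0.0803 to 0.1081 for Spry4 in 1181-Ctrl, from -0.0454 to 0.0580 for Spred2 in 1181-Ctrl and from -0.1380 to 0.0214 for Spred2 between 1057 and 1064. Without the 2 libraries 1014-Ctrl had 0.0103 for Spry1, 0.0668 for Spry4 (0.0674 with the replicate block) and 0.0273 for Spred3 (0.0312 with it). The replicate block gave -0.0180 for Spry4 in 1181-Ctrl.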
